A study of Danio rerio with 6 samples.

Results

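miR-21, the microRNA described here, was among the most abundant ones of zebrafish ovarian follicular cells, and its level did not differ detectably between late and early vitellogenic follicles. The rule took every zebrafish (dre-) entry whose miRNA number is exactly 21, on any arm, and found 1 entry, dre-miR-21, of 289 listed miRNAs. The 6 small RNA libraries came from Danio rerio females purchased from a supplier, with 3 libraries from stage IIIb follicles, the larger ones whose oocytes can be induced to mature, and 3 from stage IIIa follicles, the smaller ones that cannot yet respond. The sources used here name no treatment or genetic change, and give neither the strain nor the age of the fish. Each library was made from follicular cell layers stripped by forceps and pooled over many follicles of several fish, so a pool averages over its fish. Such a layer can hold granulosa and theca cells with vessels and blood, but the sources used here do not give its cell composition.

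A miRNA guides a silencing complex to mRNAs that pair with its seed, bases 2 to 8, and lowers their stability and translation. miR-21 is best known as a survival factor. In mammalian tumour cells it represses PDCD4, a protein that promotes cell death. In mouse granulosa cells it is induced by luteinizing hormone before ovulation, together with miR-132 and miR-212, and its blockade increases apoptosis. In zebrafish embryos it is expressed in the forming heart valves. Nothing about its function was measured here.

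The sequences are shown because they set which reads could be called miR-21. In the first and second lines the capitals mark the seed, and in the third they mark both arms around the loop in lower case.
dre-miR-21: tAGCTTATcagactggtgttggc
miR-21 3p arm: cGACAACAgtctgaaggctgtc
miR-21 hairpin: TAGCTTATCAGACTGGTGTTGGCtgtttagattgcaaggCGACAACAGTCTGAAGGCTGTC
The listed dre-miR-21 is the 5p arm, 23 nt long, and an mRNA site that pairs with its seed reads ATAAGCT. The opposite arm, 22 nt long, was listed as pol-miR-21-3p because it was found through the precursor of another species. It is therefore not among the members and is described beside them. The authors' table of precursors places this hairpin within chr10:28198894-28199041 on the minus strand of GRCz11, an interval of 148 bases. The line above shows only 61 bases, both arms and the loop between them. Folded with RNAfold, these 61 bases had a free energy of -27.7 kcal/mol, with 19 of the 23 bases of miR-21, including 6 of the 7 seed bases, paired to the 3p arm.

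RefSeq names 2 zebrafish genes for this miRNA, dre-mir-21-1 and dre-mir-21-2. In the GRCz12tu assembly the nearest protein-coding genes are rps6kb1a and ptrh2 on either side of dre-mir-21-1, and vmp1 and tubd1 on either side of dre-mir-21-2. The interval in the authors' table is 148 bases long, as is dre-mir-21-1. The sequence of the other hairpin was not used here, so how many of the miR-21 reads came from each gene cannot be told apart. No other listed miRNA shared the seed of miR-21, and the closest of the 288 others, dre-miR-30e-3p, differed at 6 positions over at least 16 aligned bases, where the authors' alignment allowed 1 mismatch.

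The values are normalized counts, which are read counts that the authors divided by a library size parameter of each sample. The totals over all 289 miRNAs ranged between 1819025.7 and 3166619.2 in stage IIIb pools and between 1779302.2 and 2196896.3 in stage IIIa pools. Most low values of a pool were whole multiples of 1 step, taken as the worth of 1 read, and dividing by it gave between 1129114 reads (stage IIIa pool 1) and 9045233 reads (stage IIIb pool 3) on the listed miRNAs. miR-21 had 118566.5, 103734.0 and 385530.0 such reads in stage IIIb pools 1, 2 and 3, against 67365.5, 190335.0 and 164051.5 in stage IIIa pools 1, 2 and 3. The counting error of these reads was at most 0.385% of the value, small beside the differences between pools. The gonad-restricted miR-202 pair took 16.3% to 23.4% of all counts in stage IIIb pools and 16.0% to 18.2% in stage IIIa pools, so this marker was present throughout.

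miR-21 was high in every pool. It had 83738.7, 86097.2 and 134969 normalized counts in stage IIIb pools 1, 2 and 3, against 106157, 104384 and 88178 in stage IIIa pools 1, 2 and 3. The highest value and both of the lowest belonged to stage IIIb, so the stages overlapped completely. For comparison, 19.7% of all miRNAs had stages that did not overlap in normalized counts, 11.8% being higher in stage IIIb and 7.96% lower. The mean of miR-21 was 101602 ± 28921 in stage IIIb and 99573 ± 9908 in stage IIIa (SD, n = 3 each). The log2 fold change, stage IIIb over stage IIIa, was -0.0020 on log2(normalized count + 1), with a standard error of 0.30 (limma, adjusted p = 0.997). Its 95% interval ran from -0.67 to 0.67, that is, from 0.629-fold to 1.59-fold, so these pools do not exclude a change within this range in either direction. Across all 289 miRNAs, 13 (4.50%) had an adjusted p under 0.05 in the same fit. Only 1 miRNA had a smaller absolute log2 fold change than miR-21 on this scale, but leaving out 1 pool turned the sign of so small a value in 4 of 6 cases, over a range from -0.22 to 0.12.

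The deposited scale and the share of the total gave different pictures. The total itself averaged 2553153.1 ± 681851 in stage IIIb and 2010356.4 ± 212326 in stage IIIa (SD, n = 3 each). Expressed as a share of the total of its pool, miR-21 took 4.60%, 3.22% and 4.26% in stage IIIb pools 1, 2 and 3, against 5.97%, 4.75% and 4.29% in stage IIIa pools 1, 2 and 3. Stage IIIb pool 3, the highest in normalized counts, lay as a share between pools 2 and 1 of its own stage and below all 3 stage IIIa pools. Stage IIIa pool 1 had the highest share. The mean share was 4.03% ± 0.721 in stage IIIb and 5.0% ± 0.865 in stage IIIa (SD, n = 3 each), a difference of -0.974 percentage points. The stages still overlapped, through stage IIIb pool 1 and stage IIIa pool 3 (exact two-sided permutation test, p = 0.20, where 0.10 is the smallest that 3 pools against 3 allow). As a share, 29.1% of all miRNAs had stages that did not overlap, 10.7% being higher in stage IIIb and 18.3% lower. The difference was -0.493 points without stage IIIa pool 1 and -0.570 points without stage IIIb pool 2.

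After all pools were rescaled to equal totals, the log2 fold change of miR-21 was -0.32 with a standard error of 0.20 and a 95% interval from -0.79 to 0.16 (limma, adjusted p = 0.387). This rescaling moved the median log2 fold change of all 289 miRNAs to -0.16, against 0.15 as deposited, so miR-21 lay below the median miRNA on both scales. On the rescaled values 184 of the other miRNAs had a larger absolute change than miR-21, against 287 as deposited. A change in the number of cells that carry miR-21 and a change in miR-21 per cell cannot be told apart in such pools. A share also moves with the levels of the other miRNAs.

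**Figure D1:**
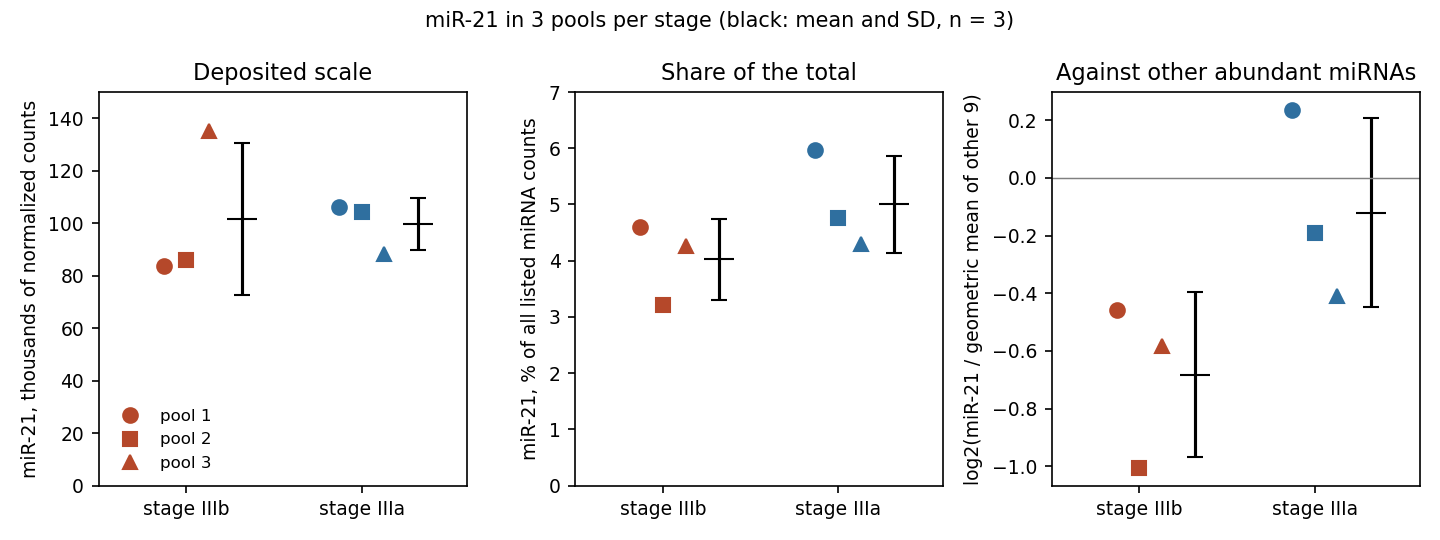
miR-21 in each pool, as normalized counts (left), as a percentage of all listed miRNA counts (middle) and as log2 of its ratio to the geometric mean of the other 9 most abundant miRNAs (right), with stage IIIb left of stage IIIa and black bars for the mean and SD of 3 pools. The stages overlap in the left and middle panels, with means of 101602 and 99573 counts and of 4.03% and 5.0%, and lie just apart in the right one.

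Among the 289 miRNAs, miR-21 placed 7th by mean share. Its rank within a pool was 6, 9 and 6 in stage IIIb pools 1, 2 and 3, against 5, 7 and 7 in stage IIIa pools 1, 2 and 3. In every pool it lay below miR-202-5p, miR-143 and miR-92a-3p and above 280 others, while its order against the remaining 5 varied between pools. Just above it in the mean order stood miR-26a-5p, with a mean share of 5.76% ± 1.04, and miR-181a-5p, with 5.53% ± 1.26, against 4.52% ± 0.890 for miR-21 (SD, n = 6 pools). Just below it stood miR-30d, with 4.03% ± 0.517, and miR-27c-3p, with 3.68% ± 0.780 (SD, n = 6). miR-21 exceeded miR-26a-5p in 1 of 6 pools, miR-181a-5p in 2, and miR-30d and miR-27c-3p in 5 each. The order of the means differed with the stage. miR-26a-5p averaged 6.66% ± 0.197 in stage IIIb and 4.86% ± 0.505 in stage IIIa (SD, n = 3 each). miR-181a-5p averaged 4.43% ± 0.375 in stage IIIb and 6.62% ± 0.504 in stage IIIa (SD, n = 3 each). Their stage differences had adjusted p-values in limma of 0.266 and 0.685 as deposited, and of 0.124 and 0.0680 with all pools rescaled to equal totals. In stage IIIb the range of miR-21 overlapped those of miR-181a-5p, miR-30d and miR-27c-3p and lay below that of miR-26a-5p. In stage IIIa it overlapped those of miR-26a-5p and miR-30d, lay below that of miR-181a-5p and lay above that of miR-27c-3p. Values of different miRNAs also carry ligation and amplification biases that were not measured, so the order is one of counts.

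The ratio of miR-21 to another miRNA of the same pool is free of any scaling. Against the geometric mean of the other 9 of the 10 most abundant miRNAs, the ratio was 0.728, 0.498 and 0.667 in stage IIIb pools 1, 2 and 3, against 1.18, 0.876 and 0.753 in stage IIIa pools 1, 2 and 3. All 3 stage IIIb pools were below all 3 stage IIIa pools. The log2 ratio was lower in stage IIIb by a mean difference of -0.56 (-0.68 ± 0.29 in stage IIIb and -0.12 ± 0.33 in stage IIIa, SD, n = 3 each, exact two-sided permutation test, p = 0.10, the smallest possible). A ratio alone does not say which side differed. As deposited, the log2 fold change of miR-21 itself was -0.0020, so on that scale the difference lay in the other 9. On equal totals that of miR-21 was -0.32, so there both sides entered.

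Taken one at a time, 4 of these 9 ratios did not overlap between the stages, all 4 lower in stage IIIb. Over the 288 possible partners, 68 ratios (23.6%) did not overlap, 46 (16.0%) being lower in stage IIIb and 22 (7.64%) higher. The ratio of miR-21 to miR-22a-3p, a miRNA reported to restrain apoptosis in mouse granulosa cells, averaged 0.406 ± 0.0814 in stage IIIb and 1.18 ± 0.429 in stage IIIa (SD, n = 3 each). miR-22a-3p itself rose by 1.497 on the log2 scale (SE 0.34, limma, adjusted p = 0.0252), and was the only one of these 9 with an adjusted p under 0.05. Its log2 change stayed between 1.26 and 1.74 without 1 pool at a time. The call was kept without stage IIIb pool 1 (limma, adjusted p = 0.00929). Leaving out any other pool lost the call, with adjusted p-values in limma between 0.0678 and 0.152. It was also lost on all 6 pools in limma without trend (adjusted p = 0.119). The other alternatives on all 6 pools kept it, with adjusted p-values in limma between 0.00594 (filter) and 0.0355 (pseudocount of 0.1). On equal totals the log2 change was 1.18 (SE 0.18, limma, adjusted p = 0.0112). The ratio to miR-26a-5p was 0.604 ± 0.0950 in stage IIIb and 1.05 ± 0.297 in stage IIIa, and that to miR-27c-3p was 0.933 ± 0.206 in stage IIIb and 1.70 ± 0.514 in stage IIIa (SD, n = 3 each). The ratio to miR-27b-3p was 1.64 ± 0.217 in stage IIIb and 4.83 ± 3.22 in stage IIIa (SD, n = 3 each), where stage IIIa pool 1 alone reached 8.52. Each of the 4 gave p = 0.10 in the exact permutation test and 0.225 after Benjamini-Hochberg adjustment over the 9. The ratios to miR-202-5p, miR-143, miR-92a-3p, miR-181a-5p and miR-30d overlapped, and those to miR-92a-3p and miR-181a-5p leaned the other way, by 0.33 and 0.26 on the log2 scale.

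**Figure D2:**
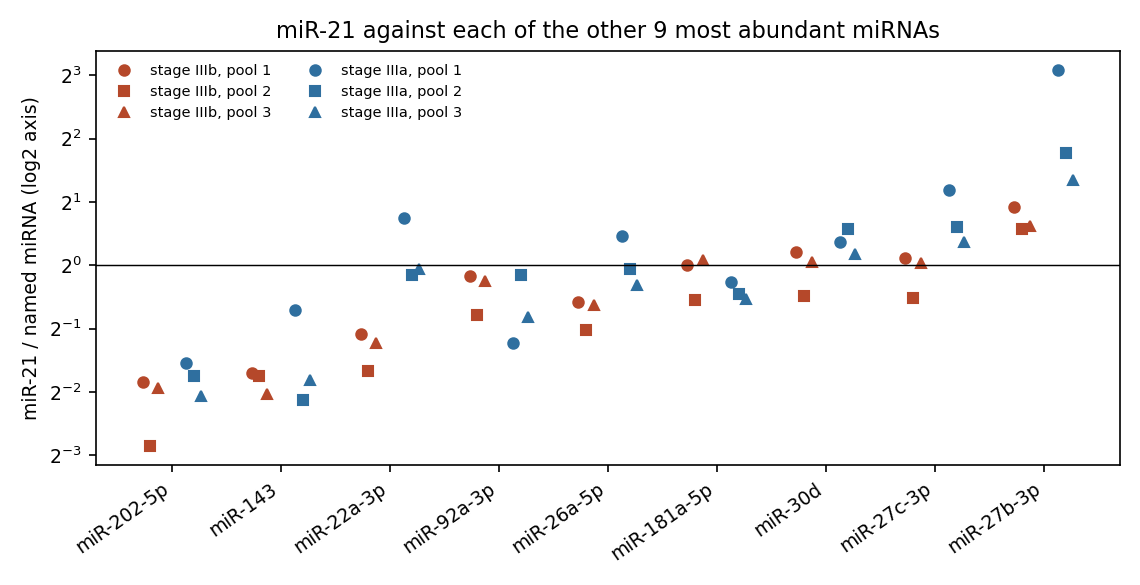
Ratio of miR-21 to each of the other 9 most abundant miRNAs in the same pool, on a log2 axis, with stage IIIb pools left of stage IIIa pools for each miRNA and 1 symbol per pool. The stages do not overlap for miR-22a-3p, miR-26a-5p, miR-27c-3p and miR-27b-3p, all 4 with lower ratios in stage IIIb, and overlap for the other 5.

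miR-21 was among the steadier miRNAs between pools of the same stage. Its within-stage SD on the log2 scale was 0.29 as deposited, where the median of all 289 miRNAs was 0.50, and 31 of them had a smaller SD. Most of this spread came from stage IIIb, with an SD of 0.39 against 0.15 in stage IIIa, and without stage IIIb pool 3 the pooled value was 0.12. On equal totals the SD was 0.26 for miR-21 and 0.43 for the median miRNA. Since counting error is larger for low miRNAs, the same was taken over the 103 miRNAs with a mean of at least 1000 normalized counts. For these the median SD was 0.41 as deposited, with 17 smaller than that of miR-21, but on equal totals the median was 0.28, with 48 smaller. Once the pool totals were equal, miR-21 thus lay near the middle of the miRNAs of this level. Among the 10 most abundant miRNAs on equal totals, 6 were steadier, the lowest SD being 0.11 for miR-26a-5p and the highest 0.51 for miR-92a-3p.

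**Figure D3:**
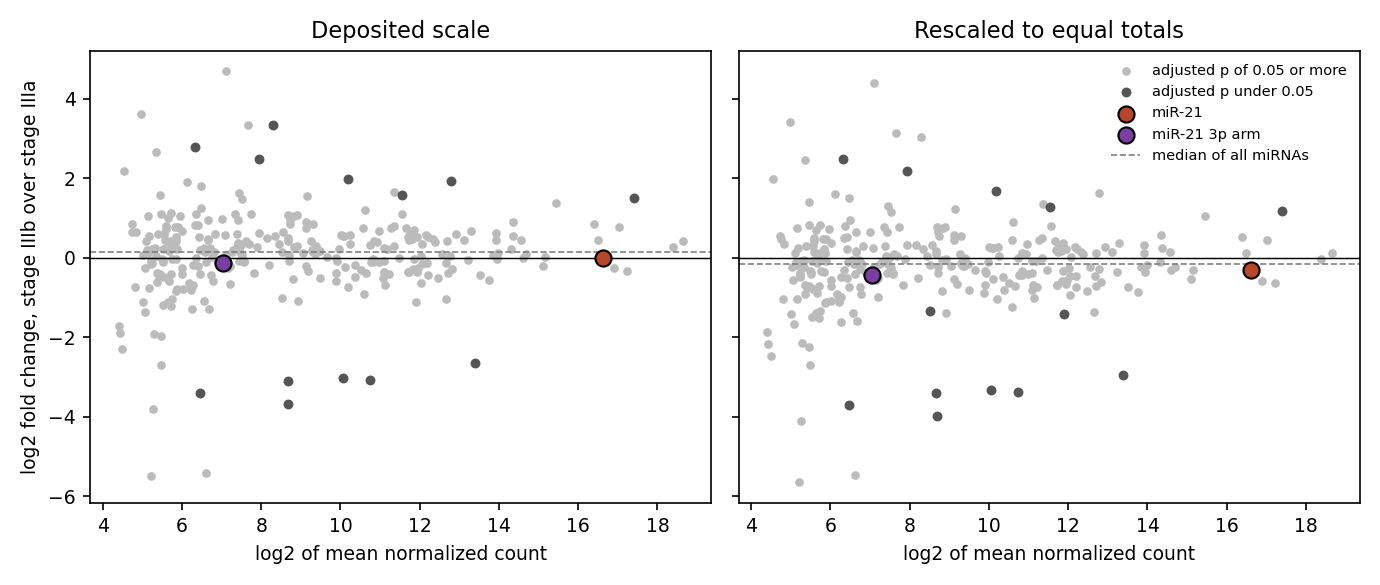
Log2 fold change, stage IIIb over stage IIIa, of all 289 miRNAs against the log2 of their mean normalized count, as deposited (left) and after rescaling to equal totals (right), with the dashed line at the median of all miRNAs. miR-21 lies far to the right near the zero line, at -0.0020 as deposited and -0.32 on equal totals, and its 3p arm, much lower in level, lies at -0.13 and -0.44.

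The miRNAs most like miR-21 were taken as those whose ratio to it varied least over the 6 pools, among 102 others with a mean of at least 1000 normalized counts. The SD of the log2 ratio had a median of 0.44 over these 102. It was lowest for miR-99, at 0.13, whose level was between 0.0253 and 0.0330 of that of miR-21 in all 6 pools. miR-222a-5p followed with an SD of 0.13 and a level between 0.0545 and 0.0693 of that of miR-21, and then miR-301a with 0.18 and between 0.0333 and 0.0442. miR-221-3p, which lowers the cell cycle inhibitor p27 in mammalian cells, had an SD of 0.18, and miR-214, a miRNA of mesenchymal cells in mammals, had 0.20. Since the choice of these 5 rests on steady ratios over both stages, it also fixes log2 fold changes close to that of miR-21, which lay between -0.11 (miR-214) and 0.09 (miR-222a-5p). All 6 miRNAs were read in the same libraries at differing depths, so this is a description of 6 pools.

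The 3p arm was read at a small fraction of the level of the 5p arm. It had 201, 65.6 and 116 normalized counts in stage IIIb pools 1, 2 and 3, against 69.3, 171 and 169 in stage IIIa pools 1, 2 and 3. Each stage held both high and low pools, and the stages overlapped completely. The mean was 127 ± 68.6 in stage IIIb and 136 ± 57.9 in stage IIIa (SD, n = 3 each), with a log2 fold change of -0.13, a standard error of 0.54 and a 95% interval from -1.30 to 1.05 (limma, adjusted p = 0.933). By rank the 3p arm lay between 146 and 216 of the 289, where miR-21 lay between 5 and 9.

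Because the 3p arm rests on few reads, its precision was limited by counting as well as by the pools. The recovered reads were 285, 79 and 330 in stage IIIb pools 1, 2 and 3, against 44, 311 and 314 in stage IIIa pools 1, 2 and 3. Of the reads on both arms, the 3p arm took 0.240% (95% exact Clopper-Pearson interval 0.213% to 0.269%), 0.0761% (0.0603% to 0.0948%) and 0.0855% (0.0765% to 0.0953%) in stage IIIb pools 1, 2 and 3. It took 0.0653% (0.0474% to 0.0876%), 0.163% (0.146% to 0.182%) and 0.191% (0.171% to 0.213%) in stage IIIa pools 1, 2 and 3. These intervals cover counting error only. Within each stage, pool 1 stood outside the intervals of both other pools, above them in stage IIIb and below them in stage IIIa, so the arms varied between pools of 1 stage by more than counting allows.

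The 5p arm exceeded the 3p arm 416-fold, 1313-fold and 1168-fold in stage IIIb pools 1, 2 and 3, against 1531-fold, 612-fold and 522-fold in stage IIIa pools 1, 2 and 3. The mean log2 ratio was 9.75 ± 0.91 in stage IIIb and 9.62 ± 0.84 in stage IIIa (SD, n = 3 each), a difference of 0.13 that lay within the spread between pools (exact two-sided permutation test, p = 1.0). Without 1 pool at a time the difference ran from -0.18 to 0.65. For context, 39 other pairs of arms were listed under zebrafish names for both arms and were above 0 in every pool. The geometric mean ratio of the major to the minor arm was 824 for miR-21 and a median of 16.7 for these 39, of which miR-92a and miR-26a exceeded miR-21. The SD of the log2 ratio over the 6 pools was 0.79 for miR-21 and a median of 0.50 for the 39, of which miR-221 alone had a larger one. Differences between the stages enter this SD as well, and were 1.02 for miR-26a and 1.12 for miR-221 on the log2 scale, against 0.13 for miR-21. Among the 9 of the 39 whose minor arm had a mean within 2-fold of the miR-21 3p arm, the SD ranged from 0.14 to 0.74, all below that of miR-21. A further 10 pairs, let-7a counting in 2 of them, had 1 arm listed only under another species' name, as miR-21 has. Their ratios ran from 2.58 to 753, the highest being that of miR-143, with a median of 14.2, and their SDs ran from 0.18 to 0.83, with a median of 0.33. None of the 10 ratios exceeded that of miR-21, and 1 SD did, that of miR-734.

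**Figure D4:**
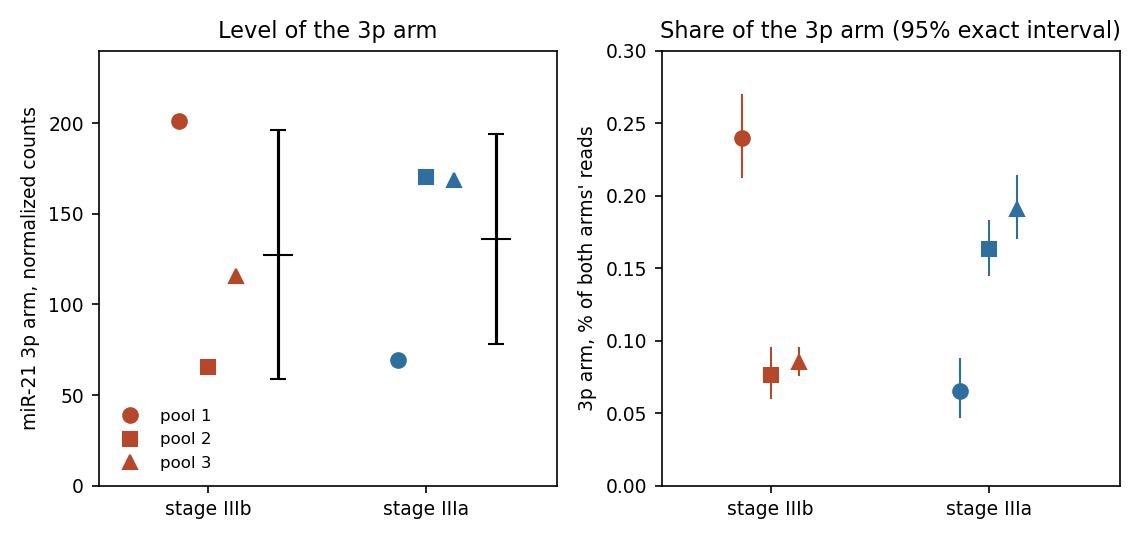
The 3p arm of miR-21 in each pool as normalized counts (left, black bars for the mean and SD of 3 pools) and as a percentage of the recovered reads on both arms (right, thin lines for the 95% exact interval), with stage IIIb left of stage IIIa. In the right panel pool 1 stands apart from the other pools of its stage, at 0.240% in stage IIIb and at 0.0653% in stage IIIa.

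The listed arms of miR-132 and miR-212, which luteinizing hormone induces with miR-21 in mouse granulosa cells, were far lower than miR-21 here. Both arms of miR-132 were listed but only the 5p arm of miR-212, so the level of the miR-212 3p arm is not given. miR-132-3p averaged 66.5 ± 34.1 normalized counts in stage IIIb and 33.4 ± 17.0 in stage IIIa (SD, n = 3 each), a log2 difference of 1.01 with a standard error of 0.66 (limma, adjusted p = 0.525). miR-132-5p and miR-212-5p had log2 fold changes of 0.81 and 0.55, and 0 of these 3 had an adjusted p under 0.05 or an unadjusted one of up to 0.05 in limma. Over all 289 miRNAs, 14.9% reached the unadjusted threshold, 9.69% being higher in stage IIIb and 5.19% lower. The 3 together took 0.00668% to 0.010% of the counts in stage IIIb pools and 0.00385% to 0.00754% in stage IIIa pools, against 3.22% to 5.97% for miR-21 alone.

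Of 7 other miRNAs with a reported role in survival or growth of mammalian granulosa cells, 1 rose, 0 fell and 6 did not pass the adjusted threshold, where 2.42% of all miRNAs rose and 2.08% fell. The one that rose was miR-22a-3p, whose call was lost without any of 5 single pools as given above. The median log2 fold change was 0.17 for these 7 and 0.15 for all 289. miR-92a-3p, which opposes apoptosis in pig granulosa cells, had a log2 fold change of -0.33 (SE 0.36). miR-23a-3p and miR-34a, which promote apoptosis of granulosa cells in mammals, had 0.67 (SE 0.37) and 0.17 (SE 0.52). miR-26a-5p, of the miR-26 family whose member miR-26b promotes granulosa cell apoptosis in pigs, had 0.77 (SE 0.31, limma, unadjusted p = 0.0308, adjusted p = 0.266). miR-181a-5p and miR-145-5p, which restrain proliferation of mouse granulosa cells, had -0.27 (SE 0.30) and -0.14 (SE 0.36).

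miR-21 is made by many cell types, blood cells and fibroblasts among them, so the level of other cells' miRNAs stands beside its values. The 6 red blood cell miRNAs all fell (limma, adjusted p under 0.05, with 5 to 6 of them doing so without 1 pool at a time). These 6 are both arms of miR-451, miR-144 and miR-2188, so they are not 6 independent observations. They made up all of the 2.08% of miRNAs called lower in that fit. Together they took 0.0904% to 0.283% of the counts in stage IIIb pools against 1.08% to 1.47% in stage IIIa pools. The 6 leukocyte miRNAs together took 0.222% to 0.329% in stage IIIb pools and 0.379% to 0.560% in stage IIIa pools without overlap. In normalized counts their sums did overlap, at 4526 to 10407 in stage IIIb pools and 6739 to 11498 in stage IIIa pools. Singly, 0 of the 6 passed the adjusted threshold in limma and 1 had an unadjusted p under 0.05, with a lower level in stage IIIb. Of all 289 miRNAs taken singly, 18.3% had shares lower in stage IIIb without overlap, and 5.19% reached the unadjusted threshold with a lower level. The 2 endothelial miRNAs took 1.57% to 1.84% in stage IIIb and 1.40% to 2.19% in stage IIIa. The 6 of smooth muscle and fibroblasts took 11.3% to 18.1% in stage IIIb and 10.4% to 21.6% in stage IIIa. Most of this sum was miR-143, which alone took 10.8% to 17.4% in stage IIIb and 9.70% to 20.7% in stage IIIa. The paper cites effects of miR-143 in mammalian granulosa cells, and miR-145-5p is also in the granulosa list above. The sum is therefore not a measure of smooth muscle and fibroblasts. All members of these 4 lists were above 0 in every pool. The 5 epithelial miRNAs took 0.132% to 0.226% in stage IIIb and 0.119% to 0.157% in stage IIIa. Of these 5, 0 passed the adjusted threshold in limma and 1 had an unadjusted p under 0.05, with a higher level in stage IIIb. miR-122, the marker of liver, took 0.00227% to 0.0293% in stage IIIb pools and 0% to 0.00509% in stage IIIa pools, with overlap. Its log2 fold change was 3.35 (limma, unadjusted p = 0.0467, adjusted p = 0.314). Of all 289 miRNAs, 9.69% reached the unadjusted threshold with a higher level. The 1 miRNA of striated muscle and the 3 of the early embryo did not reach either threshold. The part of red blood cells and leukocytes in the level of miR-21 was not tested.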

How the data were processed

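Small RNA from 3 pools of stage IIIb and 3 pools of stage IIIa follicular cells was sequenced. The authors discarded dimers of adaptors, reads of low complexity, repeats and other RNA classes with ACGT101-miR, aligned the remaining reads with 1 mismatch allowed to zebrafish and then to other precursors of miRBase 22.0, and used GRCz11 for predicted hairpins. The authors then divided the counts by a library size parameter, and deposited this signal as normalized counts of 289 miRNAs per sample, which are not raw counts. Adaptor ligation bias and the assignment of reads are as the authors left them.

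The log2(normalized count + 1) values were compared with limma 3.58.1 in R 4.3.3 (empirical Bayes with trend, two-sided, no filter, Benjamini-Hochberg over all 289). The paper names Student's test on normalized counts, which was not used with 3 samples per stage. Shares and ratios were compared with an exact permutation test over 20 assignments (Python 3.11.15, scipy 1.17.1). The sources used here do not say whether pools shared fish. The p-values take the pools as independent and set a difference against the spread between pools. Between 82.8% and 85.9% of values under 400 were whole multiples of 1 step at a tolerance of 0.01, and between 96.8% and 99.3% were multiples of its sixth part, so recovered reads served only for depth and counting intervals. In 3 pools the miR-21 reads were not whole, while those of the 3p arm were whole in all 6. The reason was not tested, so the absolute level of miR-21 and its arm ratio rest on how the authors assigned reads. Pools of 1 stage differed far beyond sampling noise (chi-square per degree of freedom at least 250.0). Hairpins were folded with RNAfold 2.7.2.

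The member, the lists and the tests were chosen with earlier results of these data known. The miRNAs named are miR-21, its 3p arm, the other 9 of the 10 most abundant, the 5 with the steadiest ratio to miR-21, and the lists of granulosa survival and gonadotropin-induced miRNAs. miR-30e-3p and the other arm pairs named were singled out after their values were seen. Arms under another species' name were paired by the same miRNA name and the opposite arm, leaving out sequences with 10 bases in common, a comparison added after seeing the data. The alternatives were pseudocounts of 0.1 and 10, a filter at a mean of 100, 3 other scalings, limma without trend or with robust estimation, a replicate block, other denominators and each pool left out in turn. These were also run for miR-22a-3p and the red blood cell miRNAs, a choice made after seeing the data. Real-time PCR and target predictions are not analysed here.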

Additional observations from a re-analysis of the deposited data

How the results depend on the processing

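No alternative gave miR-21 or its 3p arm an adjusted p under 0.05 between the stages. The log2 fold change of miR-21 was -0.17 after rescaling by median ratios and -0.30 on equal totals without the 2 most abundant miRNAs. Without 1 pool at a time it ran from -0.22 to 0.12, that of the 3p arm from -0.55 to 0.27 and the log2 ratio of the arms from -0.18 to 0.65, with signs turned in 4, 3 and 4 of 6 cases. The difference in share ran from -1.33 to -0.493 points, and the log2 ratio to the other 9 from -0.70 to -0.38, all in 1 direction. The count of miRNAs called higher (limma, adjusted p under 0.05) was 3 in limma without trend, 4 with the replicate block, 1 to 6 without 1 pool, 8 with a pseudocount of 10, 9 in robust limma and 10 with the filter, against 7, and that of lower ones stayed between 5 and 9. The SD of miR-21 within stages ran from 0.12 to 0.33 without 1 pool. Same-numbered pools deviated together with correlations of 0.10, 0.28 and -0.03 across miRNAs, against -0.35 to 0.19 for differently numbered ones. These ranges overlap, and the sources do not say whether pools shared fish, so the numbers were not taken as pairs. With the replicate block miR-21 had a log2 fold change of -0.0020 (limma, adjusted p = 0.997). Exact sign flips of the paired differences gave p = 0.25 for its share and for its ratio to the other 9, the smallest that 3 pairs allow. The causes of these shifts were not tested. Counting error was larger for the 3p arm, with 44 reads in stage IIIa pool 1, than for miR-21. The share of the 3p arm also varied between pools of 1 stage by more than counting allows.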
